A study of Mus musculus with 24 samples.

Results

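The enzymes that carry glucose carbon through glycolysis and the citric acid cycle were followed from the mRNA pool of the mouse cerebral cortex onto polyribosomes. The set held 38 named genes of glycolysis, lactate dehydrogenase, the pyruvate dehydrogenase complex and its kinases, pyruvate carboxylase and the citric acid cycle. A gene was measured where a probe set, a group of short probes for one transcript, carried its symbol alone in the array annotation. This held for 35 genes with 80 probe sets, of 18193 symbols and 45037 probe sets in all. Gpi1, Gapdh and Eno1 had no such probe set and are not analysed here. Hk2, the hexokinase typical of muscle and fat, averaged 3.59 on the log2 scale and did not reach 4 in enough arrays to be tested. The values below are those of 34 genes, each by its brightest probe set over all 24 arrays.

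There were 4 groups of 6 arrays: polyribosomal RNA of Fmr1 KO cortex, polyribosomal RNA of WT cortex, total RNA of Fmr1 KO cortex and total RNA of WT cortex. All mice were males of the FVB strain at postnatal day 7. The KO mice were null for Fmr1, the gene for FMRP, an RNA-binding protein found on polyribosomes, and the WT mice were littermates. Each lysate pooled the cortices of 2 mice, trimmed of white matter. A part of the cleared lysate, 20%, was kept as total RNA, and fractions 10 to 13 of a 20% to 50% sucrose gradient, with mRNAs on 6 or more ribosomes, made the polyribosomal RNA. Both kinds were hybridised to Affymetrix Mouse 430 2.0 arrays from 10 µg of RNA. A polyribosomal minus total difference therefore compares a transcript's share of the heavy polyribosomal RNA with its share of the lysate's RNA. It is not the fraction of its molecules that carry ribosomes.

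Glycolysis splits glucose in the cytosol into pyruvate. Lactate dehydrogenase interconverts pyruvate and lactate, while the pyruvate dehydrogenase complex turns pyruvate into acetyl-CoA inside mitochondria, where the citric acid cycle oxidises it. The postnatal brain relies on lactate and ketone bodies beside glucose and raises these enzymes as it matures. An mRNA that carries many ribosomes sediments deep in a sucrose gradient.

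On the arrays, Fmr1 itself averaged 6.19 ± 0.48 in polyribosomal RNA of KO cortex and 9.90 ± 0.21 in that of WT cortex (log2 values, SD, n = 6 each). In total RNA it averaged 6.38 ± 0.16 in KO and 9.66 ± 0.18 in WT. A log2 value of 4 was reached by 38.8% to 40.0% of probe sets per array, and the mean correlation of an array with the others of its group lay between 0.993 and 0.997. All 5 matched markers of excitatory neurons, all 5 of interneurons and all 6 of astrocytes reached 4 in every array. None of the 3 matched blood markers did so in any array. All 5 matched oligodendrocyte lineage markers reached 4 in every array, as did 2 of 5 microglial markers in each group. Of 3 matched striatum markers, 2 reached 4 in every array of each group but KO total RNA, where 1 did. Of 5 markers of endothelium and pericytes, 2 did so in polyribosomal and 1 in total RNA of each genotype. None of the 4 choroid plexus markers reached 4 in every array of a group. WT polyribosomal array 4 and KO polyribosomal array 5 had the lowest correlations within their groups.

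Most of the enzymes took a larger share of polyribosomal than of total RNA in both genotypes. In Fmr1 KO cortex 23 of 34 genes were higher in polyribosomal RNA, 2 were lower and 9 did not pass the threshold (limma with the lysate as a block, adjusted p under 0.05 over all probe sets tested). Over all genes tested in KO, 38.7% were higher and 28.2% lower. In WT cortex 25 of 34 were higher, 1 was lower and 8 did not pass, against 37.5% higher and 28.4% lower over all genes. The median difference of the 34 genes was 0.43 in each genotype, where that of all genes tested was 0.09. Of the 34, 21 were higher in both genotypes and Aldoa was lower in both.

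The roles differed in their counts. The 13 citric acid cycle genes were higher for 12 in KO and for 13 in WT, with median differences of 0.52 and 0.62. The 5 subunits of the pyruvate dehydrogenase complex were higher for 4 in each genotype, with medians of 0.54 in KO and 0.50 in WT. The 6 tested genes of the first part of glycolysis, here called the hexose steps, had 1 higher and 1 lower in KO. They had 2 higher and 1 lower in WT. Their medians were -0.15 in KO and -0.02 in WT. Tpi1 was counted among these 6, although it acts on triose phosphates. It was the 1 higher in KO and, with Pfkl, made up the 2 higher in WT. The 4 tested genes of the triose steps, down to pyruvate, had 2 higher in KO and 3 in WT. Leaving out any 1 lysate number left 11 to 13 cycle genes higher in each genotype.

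Suclg1, the alpha subunit that both succinyl-CoA synthetases share, had the largest difference of the 34. In KO cortex its log2 value ran from 10.70 through a median of 10.82 to 10.92 in polyribosomal RNA, and from 9.42 through 9.58 to 9.62 in total RNA. In WT cortex it ran from 10.53 through 10.68 to 10.84 in polyribosomal RNA, and from 9.43 through 9.66 to 9.70 in total RNA. Every polyribosomal array thus lay above every total array. For this comparison, genes shown by array were picked for large differences. The share of all genes with no such overlap is not given here. The difference was 1.27 ± 0.0803 (SE, adjusted p = 2.07e-07) in KO, a 2.42-fold rise, and 1.06 ± 0.09 (SE, adjusted p = 2.09e-06) in WT, a 2.08-fold rise.

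Idh2, the mitochondrial NADP-linked isocitrate dehydrogenase, was a dim transcript with the next largest difference. In KO it ran from 6.33 through 6.60 to 6.76 in polyribosomal RNA and from 5.51 through 5.64 to 5.77 in total RNA. WT values ran from 6.38 through 6.56 to 6.75 in polyribosomal RNA and from 5.40 through 5.80 to 5.93 in total RNA. The groups did not overlap in either genotype. The rise was 1.91-fold in KO (0.94 ± 0.088 log2 units, SE, adjusted p = 3.55e-06) and 1.80-fold in WT (0.85 ± 0.0982, SE, adjusted p = 2.05e-05).

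The NAD-linked isocitrate dehydrogenase, the form that runs the cycle, is built of the subunits encoded by Idh3a, Idh3b and Idh3g. Idh3a, its catalytic subunit, rose by 0.47 in KO and 0.41 in WT on the log2 scale. Idh3b rose by 0.67 in KO and 0.62 in WT, and Idh3g, encoded on the X chromosome, by 0.63 in each. The 3 subunits of this enzyme were thus higher in polyribosomal RNA in 6 of 6 lysates of each genotype.

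Ogdh and Dlst encode the dehydrogenase and the succinyltransferase of the 2-oxoglutarate dehydrogenase complex. Ogdh ran from 10.37 through 10.87 to 11.51 in polyribosomal RNA of KO cortex and from 9.98 through 10.47 to 10.68 in total RNA. Its WT values ran from 10.39 through 11.07 to 11.30 in polyribosomal RNA and from 10.10 through 10.32 to 10.51 in total RNA. Across arrays the groups overlapped in both genotypes, yet polyribosomal RNA was higher in 6 of 6 lysates of each. The difference was 0.49 ± 0.102 (SE, adjusted p = 0.00118) in KO and 0.68 ± 0.105 (SE, adjusted p = 0.000173) in WT. Dlst rose by 0.56 in KO and 0.66 in WT by its brightest probe set. Its other tested probe set, with a mean log2 value of 4.73, gave 0.06 in KO (adjusted p = 0.602) and 0.15 in WT (adjusted p = 0.188).

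The remaining cycle genes differed by 0.66 or less. Suclg2 and Sucla2, the alternative beta subunits that make the succinyl-CoA synthetase specific for GDP or ADP, rose by 0.64 and 0.52 in KO and by 0.66 and 0.45 in WT. Fh1, fumarase, rose by 0.52 in each genotype. Mdh1, the cytosolic malate dehydrogenase, rose by 0.27 in KO and 0.26 in WT, and Mdh2, the mitochondrial one, by 0.21 in KO and 0.20 in WT. Cs, citrate synthase, which joins acetyl-CoA to oxaloacetate, differed by 0.16 in KO (adjusted p = 0.176) and rose by 0.26 in WT (adjusted p = 0.0356). The calls of Cs and Mdh2 in WT were each lost when lysate number 1, 2, 3, 5 or 6 was left out, and that of Mdh2 in KO without number 2, 4 or 6.

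**Figure D1:**
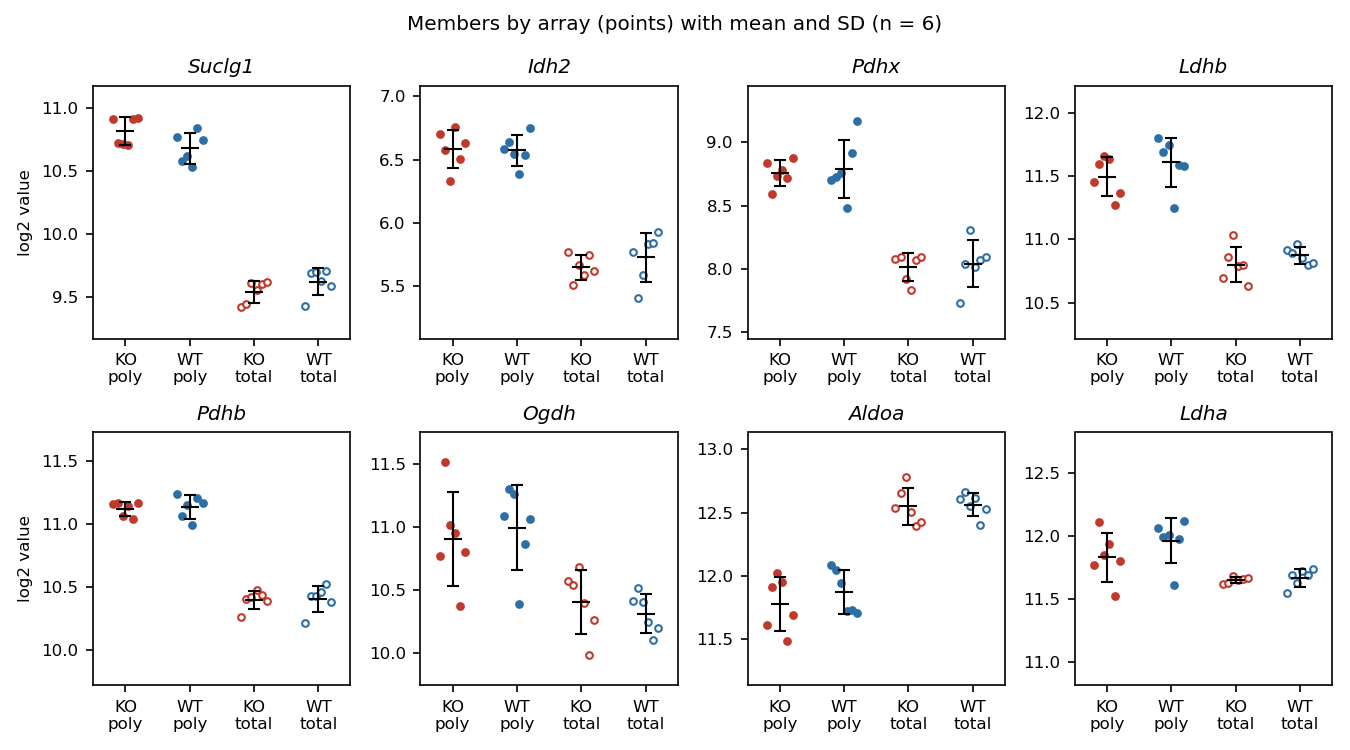
Log2 values of 8 enzymes by array (vertical axes, each panel spanning 2 log2 units), with Fmr1 KO in red and WT in blue, polyribosomal RNA filled and total RNA open. Black bars are the mean and SD of 6 arrays. Suclg1, Idh2, Pdhx, Ldhb and Pdhb stand higher in polyribosomal RNA with no overlap, Aldoa stands lower with no overlap, and Ogdh and Ldha overlap. All but Ldha were picked for large differences in WT, and the share of all genes without overlap is not given.

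Within the pyruvate dehydrogenase complex, 4 of 5 subunits rose together and 1 did not pass. Pdhb, the beta subunit of the decarboxylating enzyme, ran from 11.04 through 11.15 to 11.17 in polyribosomal RNA of KO cortex and from 10.26 through 10.41 to 10.48 in total RNA. The WT arrays ran from 10.99 through 11.16 to 11.24 in polyribosomal RNA and from 10.21 through 10.43 to 10.53 in total RNA. The groups did not overlap. The rise was 1.65-fold in KO (0.72 ± 0.0772, SE, adjusted p = 9.18e-06) and 1.66-fold in WT (0.73 ± 0.0876, SE, adjusted p = 2.70e-05). Its partner Pdha1, the X-linked alpha subunit, rose by 0.54 in KO and 0.50 in WT.

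Pdhx, the protein that tethers the dihydrolipoamide dehydrogenase to the core of the complex, ran from 8.59 through 8.76 to 8.88 in polyribosomal RNA of KO cortex and from 7.83 through 8.07 to 8.10 in total RNA. WT cortex ran from 8.48 through 8.74 to 9.17 in polyribosomal RNA and from 7.73 through 8.05 to 8.31 in total RNA. These groups did not overlap either. The difference was 0.74 ± 0.0831 (SE, adjusted p = 1.30e-05) in KO and 0.75 ± 0.102 (SE, adjusted p = 6.84e-05) in WT. Dld, the dihydrolipoamide dehydrogenase, which the complex shares with that of 2-oxoglutarate, rose by 0.43 in KO and 0.46 in WT.

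Dlat, the acetyltransferase that forms the core, differed by 0.09 in KO (adjusted p = 0.473) and 0.06 in WT (adjusted p = 0.626) by its brightest probe set. Its other 2 tested probe sets gave 0.34 and 0.43 in KO and 0.52 and 0.55 in WT, all past the threshold. Whether Dlat stood apart from the other subunits thus depended on the probe set.

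The pyruvate dehydrogenase kinases switch the complex off by phosphorylation. Pdk3, X-linked, rose by 0.62 in KO (adjusted p = 0.000116) and 0.54 in WT (adjusted p = 0.00391). Pdk1 rose by 0.33 in KO (adjusted p = 0.0139) and differed by 0.20 in WT (adjusted p = 0.0933). Pdk2 rose by 0.22 in KO (adjusted p = 0.0421) and differed by 0.10 in WT (adjusted p = 0.416), near the floor of what was tested, with a mean log2 value of 4.83. The Pdk2 call in KO was lost in 8 of 14 other settings. Pcx, pyruvate carboxylase, which refills the cycle with oxaloacetate and in brain is known from astrocytes, was lower by 0.40 ± 0.133 log2 units (SE, adjusted p = 0.0204) in KO and differed by -0.15 in WT (adjusted p = 0.228). That call was lost without lysate number 1, 3 or 5.

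Both lactate dehydrogenase subunits were abundant, and by brightest probe sets Ldhb had the larger polyribosomal minus total difference. Ldhb, the heart-type subunit, ran from 11.27 through 11.52 to 11.66 in polyribosomal RNA of KO cortex and from 10.63 through 10.79 to 11.03 in total RNA. WT values ran from 11.25 through 11.64 to 11.80 in polyribosomal RNA and from 10.80 through 10.87 to 10.97 in total RNA. No polyribosomal array fell among the total arrays. The rise was 1.62-fold in KO (0.70 ± 0.0796, SE, adjusted p = 1.52e-05) and 1.67-fold in WT (0.74 ± 0.0879, SE, adjusted p = 2.51e-05).

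Ldha, the muscle-type subunit, spanned 11.52 to 12.11 in polyribosomal RNA of KO cortex (mean 11.83 ± 0.19, SD, n = 6) and 11.62 to 11.68 in total RNA (11.65 ± 0.02). Its WT values spanned 11.61 to 12.11 (11.96 ± 0.18) on polyribosomes, and total RNA spanned 11.54 to 11.74 (11.67 ± 0.07). The groups overlapped in both genotypes. It differed by 0.18 in KO (adjusted p = 0.0972) and rose by 0.29 in WT (adjusted p = 0.0169), a call lost without lysate number 1, 3 or 6. In KO it was called higher in 3 of 15 other settings, among them without lysate number 5.

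By brightest probe sets, the genes of the hexose steps held the one enzyme that was lower in both genotypes. By the mean of its tested probe sets, Pfkp was called lower in both too, by -0.94 in KO and -0.91 in WT. That mean includes the low Pfkp probe set described below. Aldoa, the aldolase of most tissues, ran from 11.49 through 11.80 to 12.02 in polyribosomal RNA of KO cortex and from 12.40 through 12.52 to 12.78 in total RNA. Its WT values ran from 11.71 through 11.84 to 12.08 in polyribosomal RNA and from 12.40 through 12.58 to 12.66 in total RNA. Every polyribosomal array lay below every total array. The fall was 1.71-fold in KO (-0.77 ± 0.0804, SE, adjusted p = 7.70e-06) and 1.61-fold in WT (-0.69 ± 0.0838, SE, adjusted p = 2.89e-05). All 5 tested Aldoa probe sets were lower, by -0.84 to -0.37 in KO and -0.78 to -0.31 in WT. All 5 are of the kind that can also bind related transcripts, so a share of that signal from another gene was not tested.

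Tpi1, triosephosphate isomerase, next to aldolase in the pathway, rose by 0.42 in KO and 0.35 in WT. Hk1, the main brain hexokinase, differed by -0.12 in KO (adjusted p = 0.348) and -0.07 in WT (adjusted p = 0.507). The 3 phosphofructokinase subunits were mixed. Pfkl, the liver-type subunit, differed by 0.09 in KO (adjusted p = 0.534) and rose by 0.41 in WT (adjusted p = 0.00943). Pfkm, the muscle type, differed by -0.20 in KO and 0.03 in WT, and Pfkp, the platelet type, by -0.19 in KO and -0.18 in WT, with no call.

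In the triose steps Pgam1, phosphoglycerate mutase, had the largest rise, with 0.72 in KO (adjusted p = 7.32e-06) and 0.66 in WT (adjusted p = 2.92e-05). Eno2, the neuronal enolase, rose by 0.30 in KO and 0.44 in WT. Pkm, pyruvate kinase, differed by 0.03 in KO (adjusted p = 0.822) and rose by 0.25 in WT (adjusted p = 0.0367), a call lost in 6 of 15 other settings. Pgk1, the X-linked phosphoglycerate kinase, differed by 0.05 in KO and 0.15 in WT by its brightest probe set, with no call. Its 3 tested probe sets ran from 0.05 to 0.21 in KO and from 0.15 to 0.32 in WT. By their mean, or with probe sets that can bind related transcripts left out, Pgk1 was called higher in WT.

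**Figure D2:**
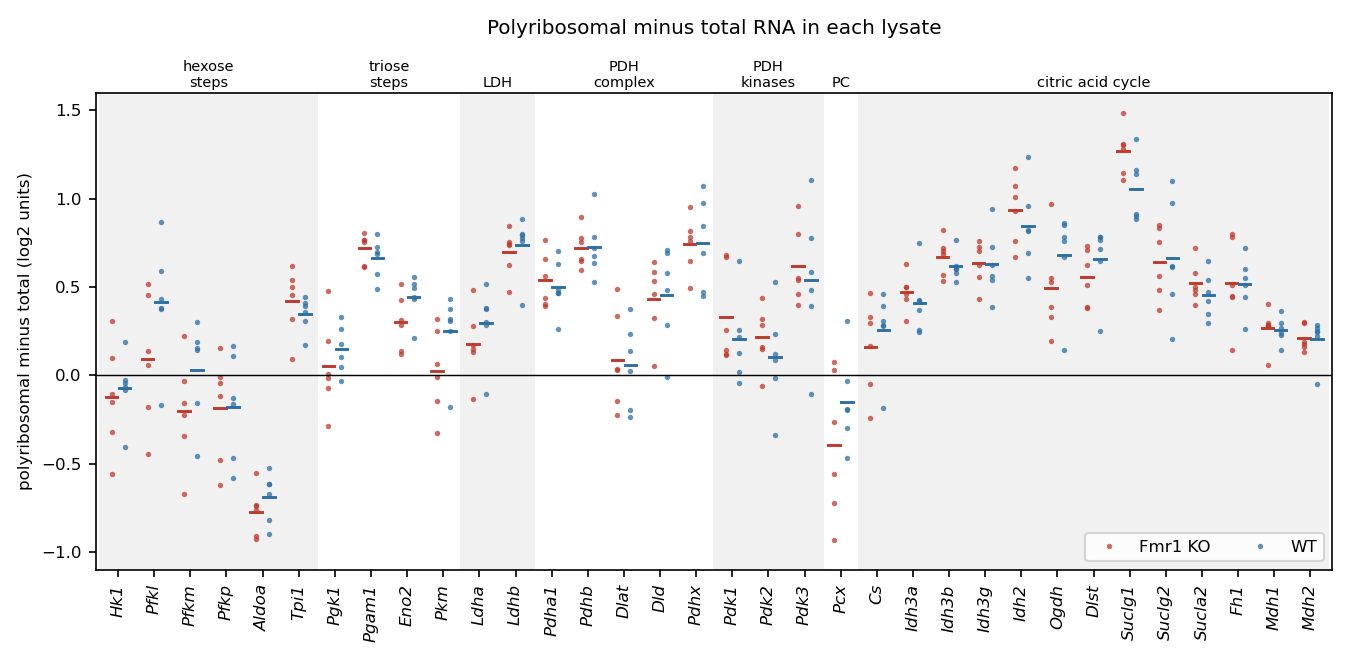
Polyribosomal minus total log2 value of each of 34 enzymes (horizontal axis, by role), with 1 point per lysate and a bar at the mean of 6, Fmr1 KO in red left of WT in blue. LDH is lactate dehydrogenase, PDH pyruvate dehydrogenase and PC pyruvate carboxylase. The means of all 13 citric acid cycle genes lie above 0, and every point of Aldoa lies below it.

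The difference between polyribosomal and total RNA also varied from lysate to lysate. The median over the 34 genes lay between 0.24 and 0.50 in the 6 KO lysates and between 0.23 and 0.56 in the 6 WT lysates. The median over all genes lay between 0.03 and 0.13 in the same 12 lysates. WT lysate 4 was the lowest, with 21 of 34 genes above 0. The cycle genes alone had a median of 0.26 there, and of 0.46 to 0.75 in the other WT lysates.

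Isoenzymes and alternative subunits of one reaction were then compared within each lysate. All 9 such pairs among the tested genes were taken, after their values had been seen, with an exact sign-flip test over 12 lysates (two-sided, smallest possible p = 0.000488) and adjustment over the 9. Ldhb exceeded Ldha in its polyribosomal minus total difference by 0.48 ± 0.11 (SD, n = 12, exact adjusted p = 0.00146), in 12 of 12 lysates. The excess was 0.52 ± 0.14 in KO lysates and 0.44 ± 0.07 in WT lysates (SD, n = 6 each). Pdk3 exceeded Pdk2 by 0.42 ± 0.20 in 12 of 12 lysates (exact adjusted p = 0.00146), and Pdk1 by 0.31 ± 0.26 in 11 of 12 (exact adjusted p = 0.00791).

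Among phosphofructokinases, Pfkl exceeded Pfkm by 0.34 ± 0.18 in 12 of 12 lysates (exact adjusted p = 0.00146) and Pfkp by 0.43 ± 0.32 in 11 of 12 (exact adjusted p = 0.00220). Pfkm and Pfkp differed by 0.09 ± 0.27 (exact adjusted p = 0.264). Suclg2 exceeded Sucla2 by 0.16 ± 0.21 in 9 of 12 lysates (exact adjusted p = 0.0271), and this call was lost without lysate number 1, 2 or 6. Mdh1 and Mdh2 differed by 0.05 ± 0.09 (exact adjusted p = 0.0860), and Pdk1 and Pdk2 by 0.11 ± 0.29 (exact adjusted p = 0.245). With the KO and WT lysates of one replicate number flipped together, as 6 units, the smallest possible p is 0.0312 and none of the 9 pairs passed after adjustment. The exact adjusted p was then 0.0938 for Pdk3 against Pdk1. It was 0.0562 for Ldhb against Ldha, Pfkl against Pfkm and Pfkp, Suclg2 against Sucla2 and Pdk3 against Pdk2. Before adjustment each pair at 0.0562 had the smallest possible p. They could not have passed unless more pairs had also reached it, so the test at 6 units could not decide. By mean log2 value over 24 arrays, Ldhb (11.20) was dimmer than Ldha (11.78), and Pdk3 (6.02) than Pdk1 (8.28). Pfkl (8.10) was dimmer than Pfkm (10.15) and Pfkp (9.92), and Suclg2 (6.18) than Sucla2 (11.80). In these pairs the dimmer gene had the larger difference, while Pdk3 was brighter than Pdk2 (4.83). The part of signal level in the pair differences was not tested.

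The first bases of a transcript are shown for Suclg1, Idh2, Pdhx, Pdhb and Ldhb, which were higher in polyribosomal RNA, for Ldha, the partner of Ldhb, and for Aldoa, which was lower, because a run of pyrimidines that begins at the start site is a known feature of mRNAs whose entry onto polyribosomes is regulated. Each sequence holds 15 bases before and 15 from the start given by RefSeq (GRCm38.p6), 5′ to 3′ on the gene's strand. Capitals mark each run of at least 5 pyrimidines that begins with C. Where RefSeq gives several starts, each is shown.
Suclg1, chr6:73248490-73248519, plus strand: gtttgCTTTTCaaacgtcatCCTTCTTgtt
Idh2, chr7:80115336-80115365, minus strand: ccccggttgggtcccagccaccagggccag
Pdhx, chr2:103073499-103073528, minus strand: catgcaaggcggggcctggacgggccttga
Pdhb, chr14:8172978-8173007, minus strand: actattggctgcgtcagacgggctctgcgg
Ldhb, chr6:142507943-142507972, minus strand: cggccccgCCTCCTCCTCCTCCTTCTTgta
Ldha start 1, chr7:46847067-46847096, plus strand: ctggtcatacaacttgggttcttgcggggg
Ldha start 2, chr7:46845789-46845818, plus strand: ctctgacgtcagcgcggagCTTCCatttaa
Aldoa start 1, chr7:126800433-126800462, minus strand: aaaagtacaaccaccagcaggcaccagagt
Aldoa start 2, chr7:126799240-126799269, minus strand: attggacggttcccgtccctgcaagggaaa
Aldoa start 3, chr7:126799164-126799193, minus strand: CCTCCCgtCCCCCCCaacccagctgaatag

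Ldhb has such a run across its start, and neither start of Ldha begins with one. Of the 49 starts of the 33 tested genes that matched the RefSeq promoter table, 1 had C as its first base and C or T at each of the next 4, 2.04%, and that was Ldhb. Of all genes' starts 823 of 32851 did, 2.51%. C followed by 4 bases each C or T, on the gene's strand, lay anywhere within the 10 bases before and the 15 from the start for 13 of the 49 starts, 26.5%, and for 30.7% of all starts. Suclg1 had a run before its start and another a few bases past it, and Idh2, Pdhx and Pdhb had none in the 30 bases shown. Start 2 of Ldha had a run a few bases past it. Aldoa, which was lower, had runs before start 3, up to the start itself, and none at starts 1 and 2. Idh3a was not in the table. The annotated starts may not be those used in this tissue.

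Several enzymes were measured by more than 1 probe set, which gave a check within the gene. Of all 64 tested probe sets of the enzymes, 41 were higher and 7 lower in KO, where 37.2% and 28.7% of all probe sets were. In WT 47 were higher and 6 lower, where 36.2% and 29.1% of all were. For the 18 enzymes with at least 2 tested probe sets, none had probe sets past the threshold in opposite directions in either genotype. In 15 of the 18 every probe set lay above 0 in WT, and in 10 of these 15 the brightest had the smallest difference. Mdh2 gave 0.21 in KO and 0.20 in WT by its brightest probe set, and 0.42 in KO and 0.47 in WT by the other. Cs ranged from 0.14 to 0.50 in KO and from 0.26 to 0.66 in WT. The part of signal saturation in this was not tested.

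Pfkp was the exception in size. Its second brightest probe set, singled out after its values were seen, ran from 6.15 through 6.84 to 7.58 in polyribosomal RNA of KO cortex and from 9.10 through 9.28 to 9.79 in total RNA. The WT arrays ran from 6.18 through 7.02 to 7.52 in polyribosomal RNA and from 9.37 through 9.54 to 9.84 in total RNA. The groups lay far apart, with differences of -2.43 ± 0.167 in KO and -2.67 ± 0.158 in WT (SE). The brightest Pfkp probe set gave -0.19 in KO and -0.18 in WT, and the third -0.22 and 0.11. These probe sets share a symbol, and which transcript each one binds was not tested.

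**Figure D3:**
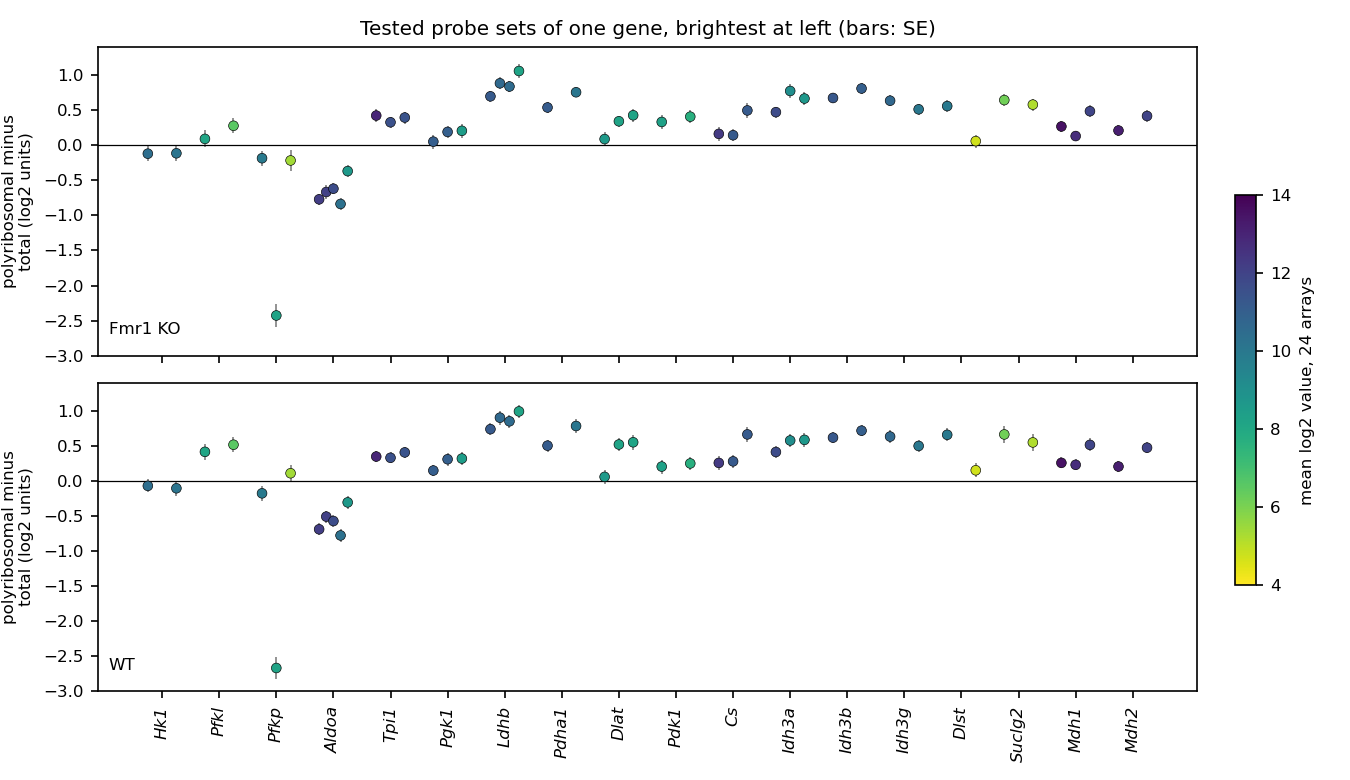
Polyribosomal minus total log2 difference with SE (vertical axis) for each tested probe set of the 18 enzymes with at least 2, in Fmr1 KO (upper panel) and WT (lower panel), brightest at left and coloured by mean log2 value. Probe sets of one gene lie on the same side of 0 for most enzymes, all 5 of Aldoa lie below it, and one probe set of Pfkp lies at -2.43 in KO and -2.67 in WT.

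No enzyme passed the threshold between genotypes. In polyribosomal RNA, 0 of 34 were called between Fmr1 KO and WT (limma, adjusted p under 0.05), where 0.0103% of all genes tested were called, and 0 of 34 had an unadjusted p under 0.05. The median difference was -0.04, with 12 genes above 0 and 22 below, and lay between -0.10 (without replicate number 4) and 0.0031 (without number 5) when 1 number was left out. Over all genes tested it was 0.01, with 5198 above 0 and 4466 below. In total RNA 0 of 34 were called, where 0.0413% of all genes were, and 0 of 34 had an unadjusted p under 0.05. The median was -0.03, with 8 genes above 0 and 26 below. Over all genes tested it was -0.01, with 4318 above 0 and 5372 below.

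The 3 smallest p-values in polyribosomal RNA belonged to glycolytic enzymes. Pkm ran from 10.27 through 10.72 to 11.04 in KO and from 10.55 through 11.01 to 11.10 in WT, a difference of -0.25 ± 0.136 (SE, 95% interval -0.54 to 0.04, adjusted p = 1.00). Pfkl ran from 7.39 through 8.05 to 8.67 in KO and from 7.96 through 8.33 to 8.79 in WT, a difference of -0.31 (95% interval -0.73 to 0.11). The groups overlapped for both enzymes. Pfkm ran from 9.55 through 10.01 to 10.42 in KO and from 9.77 through 10.32 to 10.43 in WT, a difference of -0.23 (95% interval -0.54 to 0.08), and overlapped too.

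In total RNA the 3 smallest p-values belonged to mitochondrial enzymes, and the differences were smaller. Idh3a ran from 11.32 through 11.42 to 11.54 in KO and from 11.32 through 11.58 to 11.66 in WT, a difference of -0.11 ± 0.0656 (SE, 95% interval -0.25 to 0.03, adjusted p = 0.998). Pdha1 ran from 10.76 through 10.86 to 10.93 in KO and from 10.86 through 10.92 to 10.96 in WT, a difference of -0.06 (95% interval -0.16 to 0.04). Suclg1 differed by -0.08 (95% interval -0.21 to 0.05). All 3 overlapped between genotypes.

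For the brightest probe set of each gene, a 95% interval gave a range for an unseen genotype difference. Each interval holds for its own gene and was not adjusted over the 34 genes. Over all 64 tested probe sets of the enzymes, differences ran from -0.70 to 0.16 in polyribosomal RNA and from -0.37 to 0.11 in total RNA. Of these 64, 0 were called in either RNA. An unadjusted p under 0.05 (limma) was seen for 1 in polyribosomal and 2 in total RNA. The half-width of the 95% interval had a median of 0.246 log2 units over the 34 genes in polyribosomal RNA and 0.134 in total RNA. In polyribosomal RNA 30 of 34 intervals lay within 0.5 log2 units of 0, and in total RNA all 34 did. All intervals lay within 1 log2 unit in both. The farthest bounds in polyribosomal RNA were -0.73 for Pfkl and 0.44 for Pfkp, and in total RNA -0.46 for Pfkp and 0.33 for Ogdh. In polyribosomal RNA all 6 astrocyte markers and all 5 matched markers of the oligodendrocyte lineage also lay below 0 in KO against WT, with medians of -0.16 and -0.13 and no call. All 5 matched excitatory neuron markers lay above 0 there, with a median of 0.06 and no call. In total RNA all 5 oligodendrocyte markers again lay below 0 (median -0.10), while 4 of 6 astrocyte markers (median -0.03) and 2 of 5 excitatory neuron markers (median 0.04) did, with no call. The choroid plexus list had 1 tested marker of 4, which differed by -2.35 in polyribosomal and -2.01 in total RNA, with no call. The part of these cells in the genotype values of the enzymes was not tested. In such bulk tissue, fewer cells of a type and less RNA per cell cannot be told apart.

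**Figure D4:**
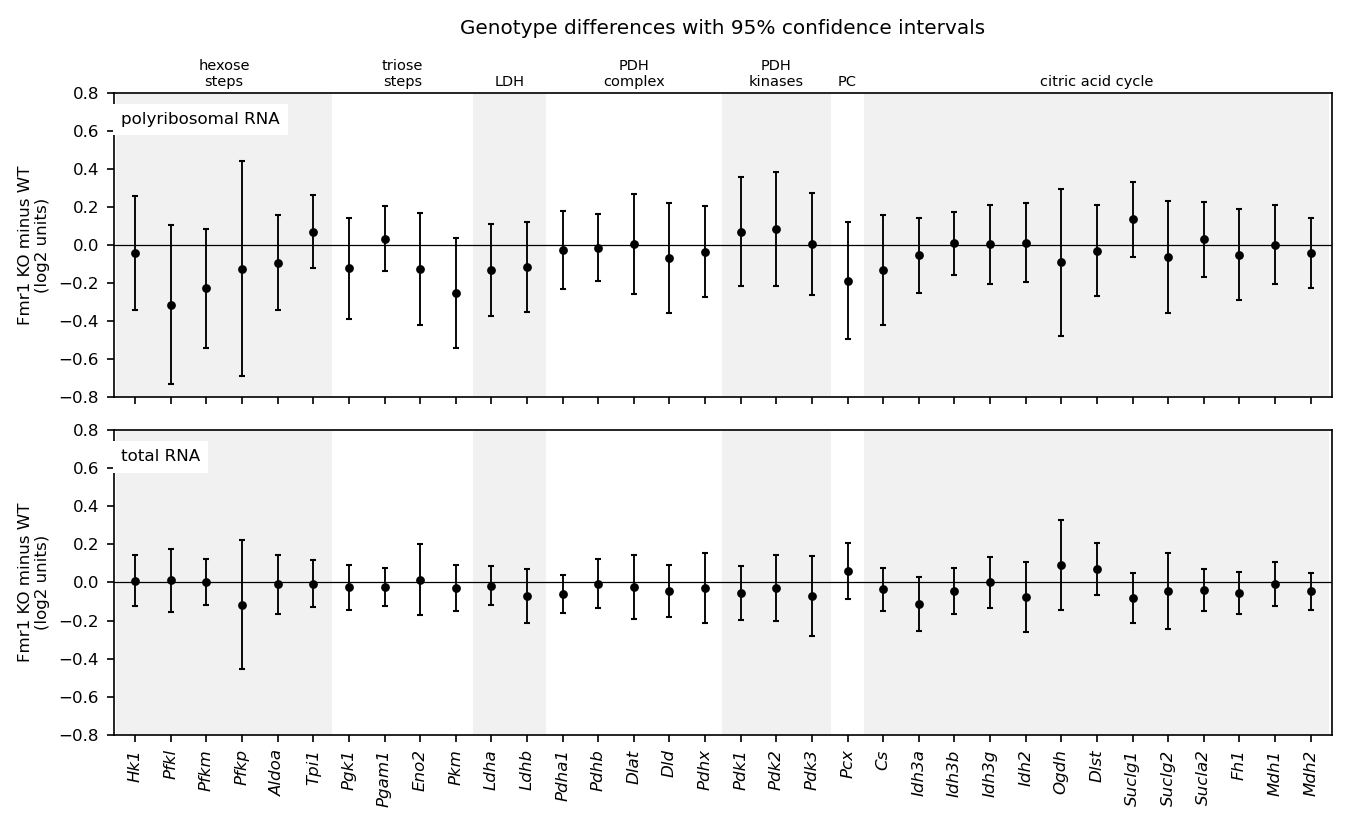
Fmr1 KO minus WT log2 difference of each of 34 enzymes with its 95% confidence interval (vertical axis), in polyribosomal RNA (upper panel) and total RNA (lower panel), n = 6 arrays per group. The intervals of all 34 enzymes include 0 in both panels, and those in total RNA are the narrower.

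The polyribosomal minus total difference itself was compared between the 6 KO and 6 WT lysates. Of 34 enzymes 0 passed the threshold and 0 had an unadjusted p under 0.05 (limma). Over all genes tested 0% passed, while 233 of 9955 had an unadjusted p under 0.05. So the enzymes called in one genotype alone (Pfkl, Pkm, Ldha and Cs in WT, Pdk1, Pdk2 and Pcx in KO) were not shown to differ between genotypes. The 3 smallest p-values were those of Suclg1, with a KO minus WT difference of 0.22 (95% interval -0.02 to 0.45), Pfkl, with -0.32 (-0.71 to 0.06), and Pkm, with -0.22 (-0.51 to 0.06). The smallest adjusted p was 0.999. For 29 of 34 enzymes the 95% interval lay within 0.5 log2 units of 0.

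Other genes of the pathway were read from lists of related genes, whose counts stand beside the shares over all genes tested, 38.7% higher and 28.2% lower in KO and 37.5% higher and 28.4% lower in WT. Of further cycle enzymes, malic enzymes and mitochondrial shuttles, 12 were higher and 1 lower of 23 in KO, and 14 higher and 0 lower of 22 in WT. Slc25a11, the carrier that exchanges malate and 2-oxoglutarate, had the largest difference, 1.27 in KO (adjusted p = 6.68e-07) and 0.97 in WT (adjusted p = 1.59e-05). Of 9 glycolysis paralogs and regulators, 6 were higher and 1 lower in each genotype. Tigar led them in KO with 0.71, and Aldoc, the brain aldolase, in WT with 0.72. Aldoc thus rose where Aldoa fell.

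The entry of pyruvate held both directions. Of 5 genes 4 were higher and 1 lower in each genotype, where 38.7% of all genes were higher in KO and 37.5% in WT. Pdpr, the regulatory subunit of pyruvate dehydrogenase phosphatase, was higher by 0.72 in KO and 0.74 in WT. Mpc1, a subunit of the mitochondrial pyruvate carrier, was the lower one, by -0.63 in KO and -0.71 in WT. Of 5 genes of glucose, lactate and pyruvate transport, 0 were higher and 3 lower in KO, and 0 higher and 2 lower in WT, where 28.2% of all genes were lower in KO and 28.4% in WT. Bsg, the chaperone of lactate transporters, had the largest difference, -0.70 in KO and -0.63 in WT.

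The remaining lists had counts of higher genes near or below the shares of 38.7% in KO and 37.5% in WT, except for 3 of 6 in the pentose phosphate pathway in WT. In that pathway 2 of 6 genes were higher and 1 lower in KO, and 3 higher and 1 lower in WT, with transaldolase, Taldo1, at 1.20 in KO and 1.08 in WT. In glycogen metabolism 2 of 9 were higher and 2 lower in KO, and 3 higher and 2 lower in WT, with Gbe1, the branching enzyme, at 1.07 in KO and 1.04 in WT. Of 11 genes of the hypoxia response, the factors Hif1a, Epas1 and Arnt among them, 3 were higher and 4 lower in each genotype, with Ddit4 at 1.42 in KO and 1.32 in WT. None of these genes passed the threshold between Fmr1 KO and WT in either RNA or in the polyribosomal minus total difference.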

How the data were processed

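RNA from 12 lysates, 6 of each genotype, was measured on 24 arrays. GCRMA is the tool named by the submitters' processing notes. It corrects background, normalizes between arrays and summarizes probe sets, in a version not given in the sources used here. The deposited values were taken to be log2 values from their span and their like medians. The number of arrays limits the precision.

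The array annotation named 1 gene for 34945 of the 45037 probe sets, more than 1 for 932 and no gene for 9160. Probe sets entered a test if at least 6 of the arrays in it reached a log2 value of 4. The test was limma 3.58.1 (R 4.3.3), two-sided, using lmFit and eBayes, and p-values were adjusted by the Benjamini-Hochberg method over every probe set in the test, with 0.05 as the threshold. The scripts were tested on simulated data. The 5 comparisons set Fmr1 KO against WT in each kind of RNA, polyribosomal against total RNA within each genotype (lysate as a block), and the within-lysate differences of KO against those of WT. A gene was represented by its brightest probe set over the 24 arrays. Genes given by every group's lowest, median and highest value were the 6 largest rises and falls in WT that passed the threshold with the same direction in 6 of 6 lysates, and the 3 smallest p-values of each genotype comparison. In each list of related genes the largest difference past the threshold was named. Ldha's spread, Mpc1 and the second Pfkp probe set were added after their values were seen. The enzymes and the lists were chosen with earlier results of these data known. Plots used matplotlib 3.10.9 under Python 3.11.15.

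Residuals of KO and WT arrays with equal replicate numbers correlated at 0.133 to 0.532 in total RNA, with 6 of 6 over 0.1, and at -0.14 to 0.625 in polyribosomal RNA, with 4 of 6 over 0.1. Polyribosomal and total arrays of one WT lysate correlated at 0.0211 to 0.525, with 4 of 6 over 0.1. Unequal numbers were not compared, so whether the numbers pair the KO and WT samples was not tested. The labels do not say that the numbers mark littermates. A planned comparison of 3′ and 5′ control probe sets could not be run, because the values used here held no such probe sets. A 3′ to 5′ measure of RNA quality is therefore not given.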

Additional observations from a re-analysis of the deposited data

Results flagged for a closer look

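In 136 combinations of an enzyme and a group of 6 arrays, 5 held an array that stood apart from the other 5 by Dixon's criterion at 95%, where chance gives about 1 in 20, or 6.8. All 5 were the array of WT polyribosomal RNA, replicate 4. It was lowest for Pkm at 10.55 (nearest other array 10.92), for Ldha at 11.61 (nearest 11.98), for Dld at 10.05 (nearest 10.52) and for Mdh2 at 13.05 (nearest 13.31), and highest for Pdk1 at 8.91 (nearest 8.37), in log2 values. Without replicate number 4 the polyribosomal minus total difference in WT was 0.34 for Pkm, 0.37 for Ldha, 0.55 for Dld, 0.26 for Mdh2 and 0.12 for Pdk1, against 0.25, 0.29, 0.46, 0.20 and 0.20 with it.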

How the results depend on the processing

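In KO, 23 to 25 of the 34 enzymes passed the threshold between polyribosomal and total RNA when a replicate number was left out, and in WT 22 to 26. The medians then ran from 0.40 to 0.45 in KO and from 0.39 to 0.46 in WT. No replicate block gave 23 in KO and 26 in WT. With other filters, normalizations and probe set rules, the median and the count kept their direction and stayed within 1.5 times. Leaving out probe sets that can bind related transcripts left Aldoa with none. Between genotypes 0 enzymes were called under every alternative run, including the replicate block. For isoenzyme pairs, taking the mean of a gene's probe sets (chosen after seeing the data) gave -0.012 for Mdh1 minus Mdh2, a reversed sign, 0.84 for Pfkm minus Pfkp, now past the threshold, and 0.12 for Suclg2 minus Sucla2, no longer past it. The mean then includes the low Pfkp probe set. Flipping the lysates of one number together, as a replicate block also chosen after seeing the data, left 0 of 9 pairs past the threshold, with a lowest exact adjusted p of 0.0562 at 6 units. The pairs at that value already had the smallest p possible before adjustment, so this flip could not decide for them.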
